A study of Mus musculus with 9 samples.

Results

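Metallothionein 1 (Mt1, NCBI gene 17748) and metallothionein 2 (Mt2, NCBI gene 17750) were followed in the livers of FED, IF and FMD mice. The pair was taken from the expression table by gene symbol and makes up 2 of the 5608 genes listed. Both genes passed the filter used for fitting, a mean of at least 1 TPM (a transcript abundance corrected for transcript length and library total) over the 9 libraries. The pair was selected on the measured rise of both genes over FED mice, which was among the largest in the table. The folds between groups are therefore given as descriptions, without a test.

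All mice were wild type C57BL/6 J, and their age and sex are not given in the sources used here. FED mice had unlimited access to a standard diet, IF mice were deprived of food 2 times for 24 h with refeeding in between, and FMD mice received a fasting-mimicking diet for 3 days. The FMD supplied 50% of the usual calorie intake on the first day and 10% on the later days, and both diet groups had free access to water and hydrogel. Livers were taken on day 5 from all groups, and the mRNA of whole livers from 3 mice per group was sequenced. The mice are numbered as in the labels, which call the FMD mice 1, 2 and 4.

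Metallothioneins are small cytosolic proteins in which cysteines bind zinc and copper in thiolate clusters, and the liver is a main site of their synthesis. Their transcription is driven by the zinc-sensing factor MTF-1, which binds metal response elements (MREs) in the promoter, and it also responds to glucocorticoids, to interleukin 6 through STAT3 and to oxidants. Food deprivation is a known inducer of hepatic metallothionein.

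The coding sequences show what the pair has in common. In GENCODE M21, Mt1 lies at chr8:94179082-94180327 and Mt2 at chr8:94172664-94173568 (GRCm38, both on the plus strand), with 3 exons each. Both code for 61 amino acids, and 20 of the 61 codons (32.8%) are for cysteine. The coding sequences from start to stop codon, with cysteine codons in capitals, were:
Mt1: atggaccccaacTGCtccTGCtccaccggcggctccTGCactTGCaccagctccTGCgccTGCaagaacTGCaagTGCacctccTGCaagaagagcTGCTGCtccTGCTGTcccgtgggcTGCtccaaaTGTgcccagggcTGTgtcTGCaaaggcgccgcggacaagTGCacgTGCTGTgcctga
Mt2: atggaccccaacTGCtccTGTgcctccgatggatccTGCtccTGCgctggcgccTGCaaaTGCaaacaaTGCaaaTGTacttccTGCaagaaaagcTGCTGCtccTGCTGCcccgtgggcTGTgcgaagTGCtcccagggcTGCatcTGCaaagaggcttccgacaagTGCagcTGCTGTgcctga
The 2 sequences of 186 bases carry the same base at 148 places (79.6%) and have all 20 cysteine codons at the same places. The longest stretch of identical bases between the whole transcripts was 20 bases. No other annotated transcript shared a run of 50 bases with Mt1. Mt2 shared such a run with 1 gene, the antisense transcript Gm45774. The libraries were strand-specific, but whether strand was used in quantification is not given in the sources used here.

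The promoters of the pair are shown because both genes rose together and because MREs are where MTF-1 acts. The 250 bases before each RefSeq gene start (GRCm38.p6, plus strand, Mt1 chr8:94178839-94179088 and Mt2 chr8:94172368-94172617) were read from the RefSeq promoter table, with MRE cores (TGCACNC or TGCGCNC, either strand) in capitals:
Mt1: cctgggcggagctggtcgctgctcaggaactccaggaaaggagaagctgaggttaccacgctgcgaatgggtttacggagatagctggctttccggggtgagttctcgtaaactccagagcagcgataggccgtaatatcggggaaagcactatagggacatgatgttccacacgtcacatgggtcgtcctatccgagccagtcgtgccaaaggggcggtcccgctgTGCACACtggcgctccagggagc
Mt2: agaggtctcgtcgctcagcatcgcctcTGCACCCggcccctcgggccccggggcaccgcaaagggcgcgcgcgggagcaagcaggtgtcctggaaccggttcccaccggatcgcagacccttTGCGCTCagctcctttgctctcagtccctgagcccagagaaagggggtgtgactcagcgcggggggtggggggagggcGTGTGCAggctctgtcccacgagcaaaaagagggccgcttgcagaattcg
In windows of 300 bases that also take in the first 50 bases after the start, Mt1 held 3 MRE cores and Mt2 held 4. Of 32851 RefSeq promoter windows of this length, 25.7% held at least 1 core, 1.97% at least 3 and 0.517% at least 4. The Mt1 cores began at base -23 before the start and at bases 3 and 21 after it. Those of Mt2 began at bases -223, -128 and -50 before the start and at base 5 after it. The hexamer TATAAA of a TATA box was found inside the annotated GENCODE transcripts, at base 129 of Mt1 and base 90 of Mt2. A further 2 cores in Mt1 and 3 in Mt2 lay beyond the window and before that hexamer. Mt2 also held 1 antioxidant response element (TGACNNNGC, present in 12.4% of the windows). Neither window held the glucocorticoid receptor half-site AGAACA, which 19.0% of the windows held. The bases between each window and the TATAAA hexamer were not searched for the antioxidant element or the half-site, so neither can be called absent there. A match describes letters only and does not show that a factor was bound.

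The table covers part of each library. The listed genes summed to between 26.3% and 43.0% of the TPM of a whole library, highest in FMD 1, and the sequencing depth is unknown. The median log2 fold change of the 4665 genes tested was 0.24 for IF and 0.48 for FMD, each against FED, and 0.24 for FMD vs IF. Values after division of each library by its median ratio to the geometric mean library, called scaled here, are therefore given too. Hepatocyte markers were represented by 2 of 12 genes, Ass1 and Cyp2f2, whose summed level was between 3478 and 6095 TPM over all libraries. Cyp2f2 was lower than in FED mice in both IF and FMD livers (log2 fold change -0.66 and -0.73, limma, adjusted p = 0.0129 and 0.00288). The IF call was lost without FED 1 or IF 2 (adjusted p = 0.0587 and 0.0571). Ass1 did not fall with it, at 0.21 in IF and 0.13 in FMD vs FED and called in neither. After scaling Ass1 was at -0.07 and -0.42, again not called. Of 12 Kupffer cell and macrophage markers only Cd68 was listed. It was at 64.0 TPM in FMD 1 and between 3.14 and 12.2 TPM in the other 8 libraries. The 5 of 12 stellate cell markers listed (Dcn, Col1a1, Hgf, Pdgfrb and Ecm1) had a summed level of 129 to 156 TPM in the FED libraries, 208 to 259 in the IF libraries and 177 to 341 in the FMD libraries. Dcn and Ecm1 made up most of the sum and were called higher in both diets, where 10.3% and 35.5% of all genes were. Hgf and Pdgfrb were not called, and Col1a1 was at -0.13 in IF and -0.22 in FMD vs FED. After scaling none of the 5 was called. Krt19 of the cholangiocyte markers was at or below 4.07 TPM, Camp of the neutrophil markers was listed at 0 in all libraries, and no sinusoidal endothelial, lymphocyte or erythroid marker was listed. The part of other cell types in the values below was not tested, and in whole liver a change in the number of cells and in RNA per cell cannot be told apart.

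Mt1 was low in FED livers, at 15.6 TPM in FED 1, 17.1 in FED 2 and 45.9 in FED 3. In IF livers it was at 352 TPM in IF 1, 579 in IF 2 and 213 in IF 3. FMD livers had 811 TPM in FMD 1, 220 in FMD 2 and 68.2 in FMD 4. Every diet library was thus above the highest FED library, FED 3, but FMD 4 only by 1.49-fold, while the lowest IF library was 4.65-fold above it. The FED mean was 26.2 ± 17.0 TPM, the IF mean 381 ± 184 TPM and the FMD mean 366 ± 393 TPM (SD, n = 3 each), that is 14.6-fold and 14.0-fold the FED mean. With geometric means, which weigh a single high library less, the folds were 15.2 in IF and 9.96 in FMD.

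Mt2 started from a lower level and showed larger folds. It was at 1.37 TPM in FED 1, 2.99 in FED 2 and 9.04 in FED 3. The IF libraries had 138 TPM in IF 1, 289 in IF 2 and 98.3 in IF 3. The FMD libraries had 427 TPM in FMD 1, 90.7 in FMD 2 and 20.9 in FMD 4. Again no diet library overlapped with FED, and the lowest IF library was 10.9-fold and the lowest FMD library 2.32-fold above FED 3. The FED mean was 4.47 ± 4.04 TPM, the IF mean 175 ± 101 TPM and the FMD mean 180 ± 217 TPM (SD, n = 3 each). These are ratios to FED of 39.3 and 40.2 with means and of 47.4 and 28.0 with geometric means. The groups did not overlap, with the diet group higher, for 53.8% of all genes tested when IF was set against FED and for 68.0% when FMD was. For the pair, where this contrast was the reason for the choice, nothing is read from that.

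**Figure D1:**
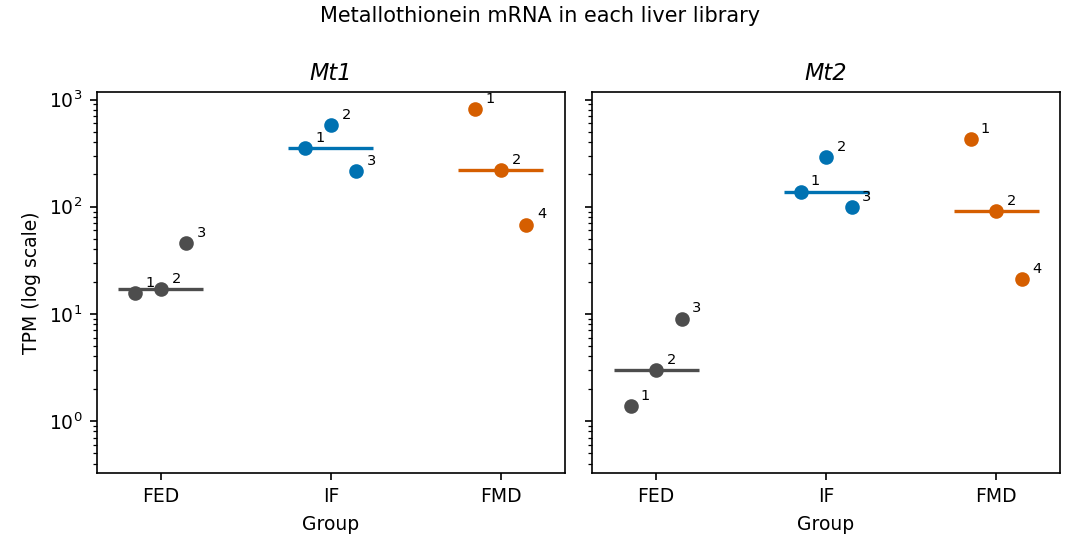
TPM of Mt1 (left) and Mt2 (right) in each liver library on a log axis, by group, with replicate numbers beside the points and a line at the group median. All 6 IF and FMD libraries lie above the FED libraries for both genes, and the FMD libraries spread from 68.2 to 811 TPM for Mt1 and from 20.9 to 427 TPM for Mt2.

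On the log2(TPM + 1) scale, the fitted changes of Mt1 against FED were 3.87 (SE 0.75) for IF and 3.26 (SE 0.75) for FMD. After scaling they were 3.60 and 2.71. Those of Mt2 were 5.12 (SE 0.90) and 4.38 (SE 0.90), or 4.91 and 3.90 after scaling. Among the 4665 genes tested, Mt2 ranked 1 and Mt1 ranked 2 from the highest change for IF, and they ranked 2 and 8 for FMD. The comparisons share the FED libraries and are not independent of each other. The FMD values depended on single libraries. Without FMD 1 the change in FMD vs FED was 2.35 for Mt1 and 3.30 for Mt2, and without FMD 4 it was 4.13 and 5.44. Leaving out any 1 library kept the IF vs FED change between 3.51 and 4.34 for Mt1 and between 4.65 and 5.69 for Mt2.

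The levels in the 2 diet groups overlapped. FMD 1 was above all IF libraries and FMD 4 below all of them for both genes, and FMD 2 was between IF 3 and IF 1 for Mt1 and below IF 3 for Mt2. The change in FMD vs IF was -0.61 (SE 0.75) for Mt1 and -0.74 (SE 0.90) for Mt2, smaller in size than its standard error. With the median shift of all genes removed by scaling it was -0.88 (SE 0.70) and -1.01 (SE 0.86), larger in size than its standard error. Its sign rested on FMD 4, without which it was 0.26 and 0.32, whereas without FMD 1 it was -1.51 and -1.83. The order of group levels was therefore FED below both diets, with IF and FMD not distinguishable from each other beyond their spread.

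Few genes varied as much between mice of a group. The pooled SD within groups on the log2(TPM + 1) scale was 1.21 for Mt1 and 1.45 for Mt2, against a median of 0.18 over the genes tested. Only 5 of the 4665 genes had a larger pooled SD than Mt1 and 1 a larger one than Mt2. Within the FMD group the SD was 1.78 for Mt1 and 2.14 for Mt2, and no gene exceeded that of Mt2. The highest library was 11.9-fold above the lowest for Mt1 and 20.4-fold for Mt2 in FMD livers. In IF livers these ratios were 2.71 and 2.94, and in FED livers 2.93 and 6.60. The spread was thus widest under FMD for both genes. It was also widest there for the genes as a whole, with a median SD of 0.25 in FMD, 0.10 in FED and 0.11 in IF livers. The wider FMD spread is therefore not particular to the pair.

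Mt1 and Mt2 ranked the 3 mice of each group in the same order. It was 3, 2, 1 from the highest in FED, 2, 1, 3 in IF and 1, 2, 4 in FMD. The FED order was shared by 19.4% of the genes tested, the IF order by 23.4%, the FMD order by 43.2% and all 3 orders by 2.66% (124 genes). Across the 9 libraries the Pearson correlation of their log2(TPM + 1) values was 0.997, and it was 0.990 after the group means were taken out. This describes 9 libraries in which both genes share the mouse, the library and its scaling.

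The balance between the genes differed between fed and restricted livers. The ratio of Mt1 to Mt2 TPM, which compares levels per transcript length, was 11.4, 5.73 and 5.07 in FED 1, 2 and 3. It was 2.55, 2.0 and 2.17 in IF 1, 2 and 3 and 1.90, 2.42 and 3.26 in FMD 1, 2 and 4. Mt1 was the more abundant transcript in every library, and the FED ratios lay above all diet ratios. The FED ratios rest on low Mt2 levels of 1.37, 2.99 and 9.04 TPM, and the lowest of these gives the ratio of 11.4. The fall of the ratio restates the larger rise of Mt2, and the pair was chosen on its rise. The mean ratio was 7.41 ± 3.49 for FED mice, 2.24 ± 0.282 for IF mice and 2.53 ± 0.685 for FMD mice (SD, n = 3 each). The sum of both genes was between 0.00581% and 0.0195% of the listed TPM in FED, between 0.0948% and 0.249% in IF and between 0.0255% and 0.288% in FMD livers. By rank of level among the 5608 listed genes, Mt1 moved from between 809 and 1656 in FED to between 121 and 291 in IF livers, and Mt2 from between 2354 and 4275 to between 239 and 516. In FMD livers Mt1 ranked between 111 and 703 and Mt2 between 202 and 1643.

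**Figure D2:**
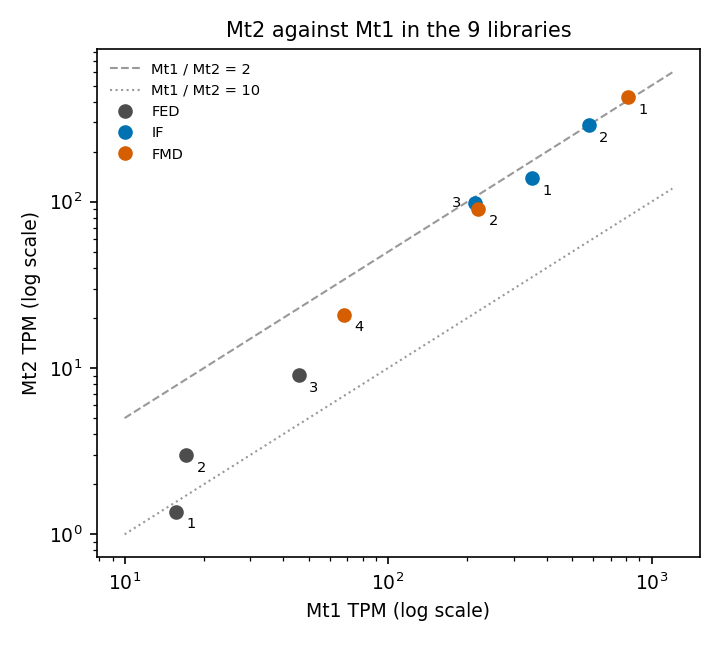
Mt2 TPM against Mt1 TPM in the 9 libraries, both on log axes, with replicate numbers beside the points and lines at Mt1 to Mt2 ratios of 2 and 10. The points rise in 1 band from FED to the diet groups, and the ratio falls from between 5.07 and 11.4 in FED to between 1.90 and 3.26 in the IF and FMD libraries.

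The genes most like the pair over the 9 libraries had smaller changes. This follows in part from the choice of the pair for its large rise, and nothing is read from it. Apart from each other, the highest Pearson correlations with Mt1 were those of Commd5 (0.968), Usp38 (0.967), Zfand1 (0.966) and B4gat1 (0.963). With Mt2 they were those of Usp38 (0.976), Commd5 (0.973), Bloc1s1 (0.967) and Zfand1 (0.962). Their log2 fold changes against FED were between 0.26 and 0.80 for IF and between 0.25 and 0.77 for FMD, with Commd5 the highest in both. After scaling those of Usp38, Zfand1, B4gat1 and Bloc1s1 for FMD were between -0.27 and -0.0087. The correlation is over 9 points that fall into groups and describes shape, not size.

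Mt3 and Mt4, the neuronal and epithelial members of the family, were not analysed here, since the table used does not list them. Changes are also given for genes close to the pair on the chromosome. The pair was chosen for its large rise, so nothing is read from the smaller changes of these genes. The RefSeq starts of Mt2 and Mt1 are 6471 bases apart. Of the 10 protein-coding genes on either side, 10 of 20 were listed and 9 tested. Genes were called where limma gave an adjusted p under 0.05 together with a change of over 1.5-fold, as the study set it. Against FED, the log2 fold changes of the 9 neighbours were between -0.33 and 0.67 for IF, with none called, where 11.9% of all genes tested were. For FMD they were between -0.23 and 0.84, with 1 called higher, where 35.5% of all genes were called higher. That gene was Herpud1, an endoplasmic reticulum stress gene, at 0.84 (limma, adjusted p = 0.00132). After scaling it was at 0.28 (adjusted p = 0.203) and no longer called. Nup93, the nearest gene beyond Mt1 and a nuclear pore component, was at 0.07 in IF and 0.21 in FMD vs FED. Ogfod1, the nearest tested gene on the side of Mt2, was at 0.25 and 0.41.

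**Figure D3:**
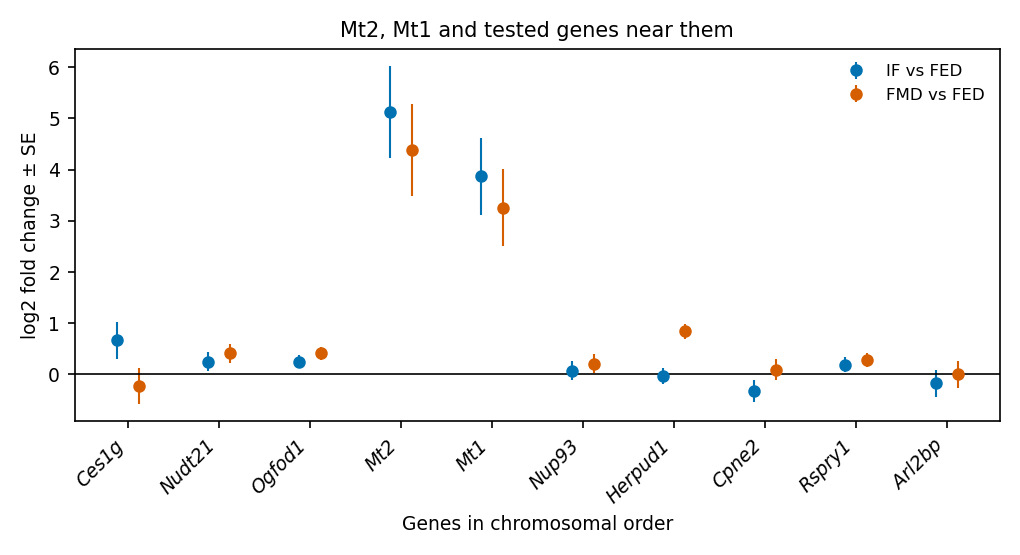
Log2 fold changes with standard errors (limma, log2(TPM + 1) scale) of Mt2, Mt1 and 8 of the 9 tested genes nearest to them, in chromosomal order, for IF vs FED and FMD vs FED. The pair, chosen for its rise, stands between 3.26 and 5.12 and the other genes between -0.33 and 0.84.

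Zinc transporters move zinc out of the cytosol (Slc30 family, ZnT) or into it (Slc39 family, ZIP). Of 24 in the list 12 were tested. For IF 1 was called higher and 1 lower than in FED, where 10.3% and 1.59% of all genes were, and the list median was 0.14 against 0.24 over all genes. For FMD 3 were called higher (Slc39a6, Slc39a9 and Slc30a4) and none lower, where 35.5% of all genes were higher and 1.59% lower, and the list median was 0.54 against 0.48 over all genes. Without FMD 1, Slc39a9 was at 0.56 and Slc30a4 at 0.28, and neither was called. The Slc30a4 call was also lost without any 1 FED or IF library, at adjusted p-values up to 0.123, and Slc39a6 fell below the filter without any 1 FMD library. After scaling none was higher in either comparison, where 3.71% of all genes in IF and 5.47% in FMD were. Slc39a4 and Slc39a11 were lower in IF and Slc39a11 in FMD on that scale, where 3.43% and 5.72% of all genes were. The largest change of any of the 12 against FED, in either direction, was the fall of Slc39a4 in IF livers.

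Slc30a1 encodes ZnT1, the zinc exporter of the plasma membrane, and is like the metallothioneins a target of MTF-1. The FED libraries had 8.64, 9.31 and 10.3 TPM, the IF libraries 15.6, 17.2 and 12.9 TPM and the FMD libraries 8.70, 9.82 and 16.0 TPM. All IF libraries were above FED, and in FMD livers only FMD 4, the library with the lowest Mt1 and Mt2, was. The log2 fold change in IF vs FED was 0.63 (SE 0.20, limma, adjusted p = 0.0413). After scaling it was 0.38 (adjusted p = 0.327). Without FED 1, FED 2, FED 3, IF 1 or IF 2 the call was lost as well, at adjusted p-values between 0.0735 and 0.154. In FMD vs FED it was 0.22 (adjusted p = 0.325), and it turned to -0.28 after scaling and to -0.022 without FMD 4.

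Slc39a4 encodes the zinc importer ZIP4, best known from the intestine, where zinc deficiency raises it. Its level was 43.8, 33.9 and 44.4 TPM in FED 1, 2 and 3, 21.9, 16.5 and 15.2 TPM in IF 1, 2 and 3, and 40.7, 40.6 and 49.1 TPM in FMD 1, 2 and 4. The IF libraries lay below all others. The change was -1.15 in IF vs FED (SE 0.16, limma, adjusted p = 0.00112). For FMD vs FED it was 0.10 (adjusted p = 0.593), turning to -0.45 after scaling and to -0.0255 without FED 2. The difference between the diets itself was 1.25 in FMD vs IF (adjusted p = 0.00463, and 0.98 with an adjusted p of 0.0256 after scaling), where 4.67% of all genes were called higher. The IF and FMD libraries of Slc39a4 did not overlap, as was so with FMD higher for 33.6% of all genes tested, while those of Mt1 and Mt2 did.

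Transcription factor genes that act on metallothionein promoters gave no call in IF livers. Of 12 in the list 8 were tested. None was called for IF, where 11.9% of all genes were, and with 8 genes nothing is read from that. Usf2 and Cebpb were called higher for FMD, where 35.5% of all genes were. The list medians were 0.15 and 0.44, against 0.24 and 0.48 over all genes. In IF vs FED 2 of the 8 had an unadjusted p under 0.05, Usf2 at 0.47 and Cebpb at 0.44, and both passed the adjusted p (limma, 0.0294 and 0.0295) but not the limit on the fold change. Mtf1, which encodes MTF-1, had 1.83, 2.07 and 2.21 TPM in the FED libraries, 2.21, 2.21 and 2.25 in the IF libraries and 3.20, 3.19 and 2.50 in the FMD libraries. Its log2 fold change was 0.09 in IF vs FED (limma, adjusted p = 0.598), which turned to -0.11 after scaling. In FMD vs FED it was 0.38 (adjusted p = 0.0172), below the limit on the fold change, and it turned to -0.015 after scaling. Usf2, an E-box factor, was at 0.59 for FMD, and it was not called without FMD 4 (0.44) or FED 3 (0.58) or after scaling (0.046). Stat3 was at 0.17 in IF and 0.32 in FMD vs FED and was called in neither. Transcript levels do not show the zinc-dependent activity of MTF-1. Nr3c1, the glucocorticoid receptor gene, was not analysed here.

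**Figure D4:**
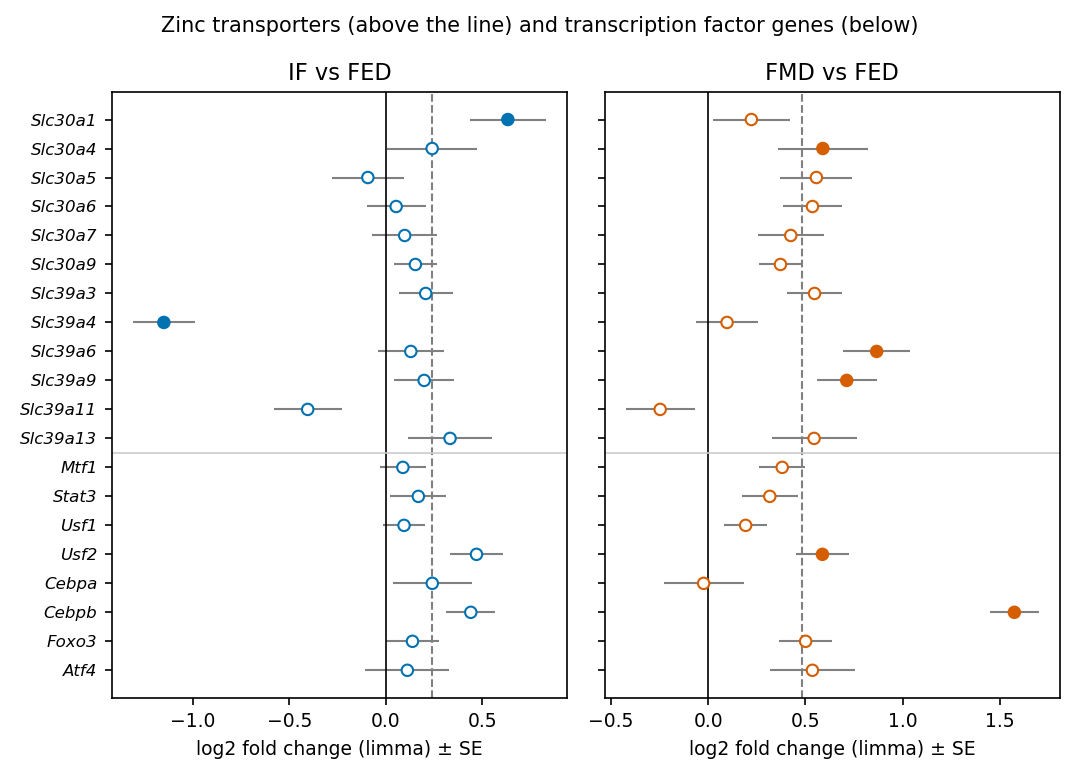
Log2 fold changes with standard errors (limma) of the 12 zinc transporters and 8 transcription factor genes tested, in IF vs FED (left) and FMD vs FED (right). Filled points were called, the dashed line marks the median of all genes tested (0.24 and 0.48), and most genes lie close to it, with Slc39a4 in IF and Cebpb in FMD farthest from it.

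Several glucocorticoid-responsive genes rose in both diets. Besides the pair, 8 of 23 in the list were tested, of which 4 were called higher than FED in IF and 7 in FMD livers, and none lower. Among all genes 10.3% and 35.5% were called higher. The list medians were 0.98 and 1.66. After scaling 3 and 5 remained called higher, where 3.71% and 5.47% of all genes were, with medians of 0.72 and 1.12. All 8 genes are given here, a choice made after their values were seen.

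Fkbp5, a co-chaperone of the glucocorticoid receptor, had 2.03, 4.69 and 5.31 TPM in the FED, 21.7, 30.9 and 18.4 TPM in the IF and 72.9, 66.2 and 33.9 TPM in the FMD libraries. Its log2 fold changes were 2.34 for IF (SE 0.33, limma, adjusted p = 0.00119) and 3.54 for FMD against FED (adjusted p = 4.64e-05). It ordered the mice of every group as Mt1 and Mt2 did, and it was one of the 124 genes that did so. It was higher in every FMD library than in every IF library, and its change of 1.21 in FMD vs IF did not pass the test (adjusted p = 0.051).

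Per1, a clock gene, rose by 2.08 in IF and 2.62 in FMD vs FED (limma, adjusted p = 0.000117 and 9.58e-06). Angptl4, which inhibits lipoprotein lipase, rose by 1.11 and 1.87 (adjusted p = 0.00139 and 3.3e-05). Klf9, a Krüppel-like factor, rose by 0.80 and 1.17, but its IF value was 0.53 and no longer called after scaling. Cebpb, which encodes C/EBPβ, was at 0.44 in IF and rose by 1.57 in FMD vs FED, and it also rose by 1.13 in FMD vs IF (adjusted p = 0.00195). Sgk1, a kinase gene, and Dusp1, a phosphatase gene, rose by 1.75 and 1.21 in FMD vs FED and were not called after scaling. Nor was Sgk1 called without FED 2 (adjusted p = 0.0501) or Dusp1 without FED 3 (adjusted p = 0.0638). Sgk1 was at 89.4 TPM in FMD 1 and at or below 23.9 TPM in all other libraries. Tsc22d3, which encodes GILZ, was at 0.52 and 0.66 and was called in neither. In FMD 1, 2 and 4, where Mt1 and Mt2 differed 11.9-fold and 20.4-fold, these genes varied to different degrees. Sgk1 had 89.4, 23.9 and 15.15 TPM and Fkbp5 72.9, 66.2 and 33.9 TPM, both in the order of the pair. The others did not keep that order. Dusp1 had 44.0, 31.7 and 34.45 TPM, Tsc22d3 61.0, 75.0 and 57.4 TPM and Angptl4 245, 325 and 240 TPM. Cebpb had 179, 212 and 213 TPM, Per1 14.97, 16.4 and 16.0 TPM and Klf9 56.6, 54.6 and 56.2 TPM. A link to the spread of the pair was not tested.

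**Figure D5:**
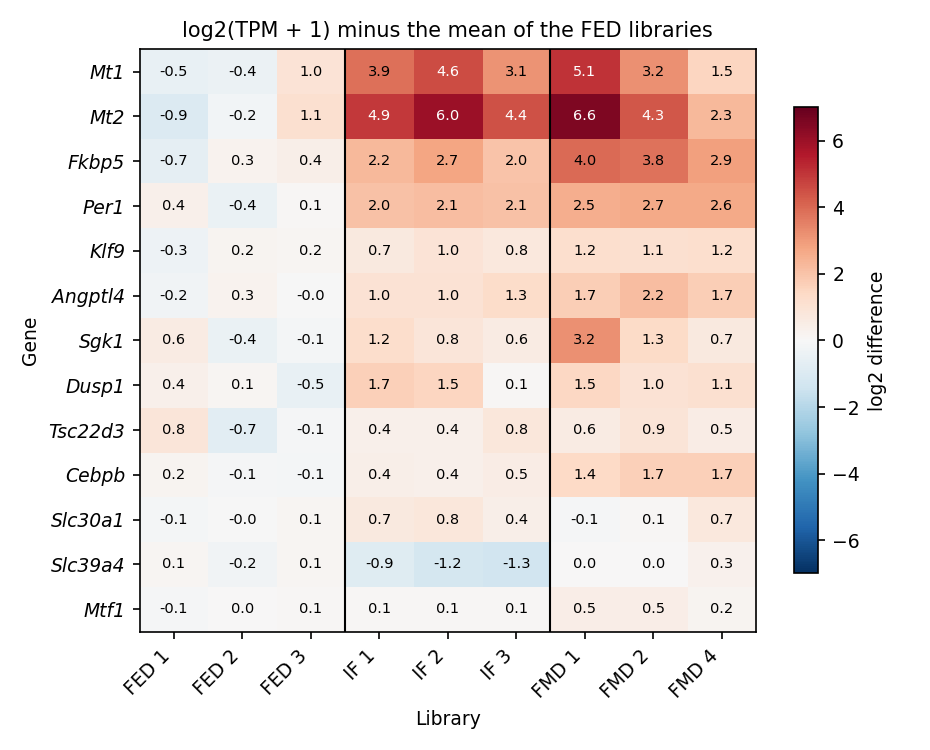
Difference of log2(TPM + 1) from the mean of the FED libraries for Mt1, Mt2, the 8 glucocorticoid-responsive genes tested, Slc30a1, Slc39a4 and Mtf1 in each library (columns, separated by group). Mt1 and Mt2 are highest in FMD 1 and IF 2, Fkbp5 follows the same order within groups, and Slc39a4 is lowered in the IF columns.

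Acute phase and STAT3 target genes moved in both directions. Besides the pair, 17 of 31 were listed and 16 tested. There were 3 higher and 3 lower than FED in IF livers, and 5 higher and 3 lower in FMD livers, with medians of 0.03 and 0.41 over the list. The 5 include Il1rn, which passed the filter only through the FMD libraries (mean 5.59 TPM, against 0.44 in FED and 0.92 in IF). Among all genes 10.3% were higher and 1.59% lower in IF, and 35.5% and 1.59% in FMD. Socs3, the feedback inhibitor of STAT3 signalling, rose by 1.06 in IF and 1.31 in FMD (limma, adjusted p = 0.006 and 0.0008). Serpina3m, a protease inhibitor gene, rose by 1.50 and 1.75 (adjusted p = 0.000709 and 0.000132). Orm1, which encodes the acute phase protein orosomucoid, fell by 1.92 on the log2 scale in FMD vs FED (adjusted p = 0.000137), and Lifr, the leukaemia inhibitory factor receptor gene, fell by 2.22 and 2.61. Lbp, encoding lipopolysaccharide-binding protein, rose by 0.80 in IF vs FED, which was 0.52 and not called after scaling. After scaling 2 genes were higher and 3 lower in IF, where 3.71% and 3.43% of all genes were, and 3 higher and 4 lower in FMD, where 5.47% and 5.72% were. The 3 higher in FMD again include Il1rn.

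Antioxidant genes under NRF2 gave more calls in FMD than in IF livers, as did the genes as a whole. Of 39 in the list 22 were listed and 21 tested. Against FED 2 were higher and 1 lower in IF, and 10 were higher and 1 lower in FMD livers, with medians of 0.15 and 0.58. The 10 include Abcc4, which passed the filter only through the FMD libraries (mean 2.09 TPM, against 0.37 in FED and 0.86 in IF). Among all genes 10.3% were higher and 1.59% lower in IF, and 35.5% and 1.59% in FMD. After scaling 3 were higher and 1 lower in FMD, where 5.47% and 5.72% of all genes were, and none was higher and 3 were lower in IF, where 3.71% and 3.43% were. Hmox1, which encodes haem oxygenase 1, had 13.7, 12.8 and 14.3 TPM in the FED libraries, 9.65, 9.08 and 10.4 in the IF libraries and 35.9, 31.0 and 21.8 in the FMD libraries. Its change in FMD vs IF was 1.49 (limma, adjusted p = 0.00195) and 1.22 after scaling. Maff, a small Maf factor gene, was at 0.34 to 0.76 TPM in IF and 11.9 to 25.8 TPM in FMD livers, a change of 3.61 in FMD vs IF (adjusted p = 4.08e-05). Sqstm1, which encodes the autophagy receptor p62, was at 0.93 in FMD vs IF (adjusted p = 0.0315), a call that was lost without any 1 FED or IF library, at adjusted p-values up to 0.117. In FMD vs IF 4 genes of the list were called higher, where 4.67% of all genes were. After scaling 3 were higher and 1 lower, where 1.07% and 1.09% of all genes were. The FMD libraries were above all IF libraries for Hmox1 and Maff, as for 33.6% of all genes tested, and the groups overlapped for Mt1 and Mt2.

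Genes of cysteine and glutathione synthesis supply the residue in which the pair is rich. Of 28 in the list 12 were listed and 11 tested, with 3 called higher than FED in IF, where 10.3% of all genes were, and 4 higher and 1 lower in FMD livers, where 35.5% and 1.59% were. The FMD count of higher genes was thus near the share over all genes. The list medians were 0.40 and 0.59. Mat2a, which encodes methionine adenosyltransferase 2A, rose by 0.73 in IF and 1.21 in FMD (limma, adjusted p = 0.000986 and 2.49e-05), and the IF value was 0.46 and not called after scaling. Cth, encoding cystathionine gamma-lyase, which releases cysteine, had 399, 348 and 370 TPM in the FED libraries, 1073, 1175 and 621 in the IF libraries and 566, 944 and 330 in the FMD libraries. Its change in IF vs FED was 1.31 (adjusted p = 0.0188). It was 1.03 after scaling (adjusted p = 0.0695), and the call was also lost without any 1 of FED 1, FED 2, FED 3, IF 1 and IF 2, at adjusted p-values up to 0.0835. Ethe1, a mitochondrial sulphur dioxygenase gene, fell by 0.74 on the log2 scale in FMD vs FED, and by 0.56 without FMD 4, below the limit on the fold change. After scaling no gene of the list was called in IF, and 1 was higher and 2 were lower in FMD, where 5.47% and 5.72% of all genes were.

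Metallothioneins also bind copper, and copper and iron genes were counted for comparison. Of 16 copper-handling genes 7 were tested. None was called for IF, where 11.9% of all genes were, and with 7 genes nothing is read from that. The copper chaperones Atox1 and Cox17 were higher for FMD at 0.67 and 0.66, where 35.5% of all genes were higher. At an unadjusted p under 0.05, 2 of the 7, Atox1 and Sod1, differed between IF and FED, and Sod1 also passed the adjusted p but not the limit on the fold change. Without FMD 1, Atox1 and Cox17 were at 0.51 and 0.50, below the limit on the fold change, and after scaling they were at 0.11 and 0.11. Of 24 iron-handling genes 9 were tested. Pcbp2, an iron chaperone and RNA-binding protein gene, was higher in both diets at 0.76 and 0.78, and Tfrc, the transferrin receptor gene, was at 0.95 in FMD vs FED, where with Hmox1 3 genes were called. After scaling none of Pcbp2, Tfrc and Hmox1 was called in FMD vs FED, and Pcbp2 was at 0.48 in IF vs FED and not called there either. The calls against FED that these lists gave after scaling were all lower ones. Of the copper genes, Steap3 was lower in FMD at -0.82 (limma, adjusted p = 0.000812). Of the iron genes, Hpx was lower in FMD (adjusted p = 0.0227) and Hmox1 was lower in IF at -0.71 (adjusted p = 0.00535). Among all genes 5.72% were lower in FMD and 3.43% in IF on that scale.

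Over all these lists together, with the pair left out, 82 of 183 genes were tested. Against FED 14 were called higher and 5 lower in IF, where 10.3% and 1.59% of all genes were, and after scaling 5 and 8, where 3.71% and 3.43% were. In FMD livers 33 were higher and 5 lower, where 35.5% and 1.59% of all genes were, and after scaling 12 and 9, where 5.47% and 5.72% were. The 33 include Slc39a6, Abcc4 and Il1rn, which passed the filter only through the FMD libraries, and the 12 after scaling include Il1rn. Scaling thus changed the share of higher genes. Mt1 and Mt2 had changes of at least 2.71 in both diets on either scale. The pair was chosen for a rise far larger than the median shifts of 0.24 and 0.48, so nothing is read from this.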

How the data were processed

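Liver RNA of 9 mice (3 FED, 3 IF and 3 FMD, grouped by the labels) was analysed. The authors made strand-specific oligo-dT libraries on DNBSEQ and deposited TPM values, with 2 decimals, for the genes used here. The submitters' processing notes name the build mm39. The aligner, quantifier and annotation are not given in the sources used here, and depth is unknown.

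The TPM values were used as log2(TPM + 1). The 4665 genes with a mean of at least 1 TPM were fitted with limma 3.58.1 in R 4.3.3 (lmFit, eBayes with trend, 1 fit of 9 libraries, Benjamini-Hochberg adjustment over all genes tested). The limits for a call were those of the study, 0.05 for the adjusted p and 0.585 for the size of the log2 fold change. The fit was tested on simulated data. No batch is given in the labels. The p-values set a group difference against the spread within groups, estimated for each gene jointly over the 9 libraries. The median SD over the genes tested was 0.25 in FMD, 0.10 in FED and 0.11 in IF, a difference that the joint estimate does not take into account.

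The members and the gene lists were chosen with earlier results of these data known. Named were the pair, in each list and comparison up to 4 called genes by adjusted p, Mtf1, the zinc transporters, 10 genes on either side, the 5 most correlated genes and markers. The values of 1 neighbouring gene are not reported here. Of 5608 gene IDs 5605 matched RefSeq. Sequences are from RefSeq (GRCm38.p6) and GENCODE M21, whose build is not that of the deposited values. Tables were made in python 3.11.15 (pandas 2.3.3, numpy 2.4.6) and plots in matplotlib 3.10.9. Alternatives covered the pseudocount, filter, scaling, quantile normalization, trend, fits per pair of groups, a replicate block, thresholds and each library left out.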

Additional observations from a re-analysis of the deposited data

How the results depend on the processing

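The changes of Mt1 and Mt2 against FED stayed positive under every alternative and every left-out library, between 2.35 and 4.34 for Mt1 and between 3.30 and 5.69 for Mt2. Because the pair was chosen for its large rise, nothing is read from the constant sign. In FMD vs IF the changes were between -1.51 and 0.32 for Mt1 and between -1.83 and 0.43 for Mt2. The number of genes called depended on the processing, and where the setting itself does not show it the cause was not tested. In IF vs FED 553 genes were called, and 333 after scaling by the median ratio, 326 after quantile normalization, 364 at an adjusted p under 0.01, 1112 with no limit on the fold change and 415 to 609 with a library left out. The list genes called there numbered 19, then 12 at an adjusted p under 0.01 and 13 to 24 with a library left out. In FMD vs FED 1732 genes became 522 after scaling, 514 after quantile normalization, 3135 with no limit on the fold change and 1158 (without FMD 1) to 2174 with a library left out. The 38 list genes became 21 and 20 under both scalings. In FMD vs IF 240 genes became 120 without the filter, 101 and 98 under both scalings, 24 with a fit per pair of groups, 19 at an adjusted p under 0.01 and between 18 (without IF 2) and 819 (without FMD 4) with a library left out. The 11 list genes became 7 without the filter, 4 with a fit per pair, 4 at the stricter p and 4 to 25 with a library left out.

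Deviations from the group means correlated at 0.00348 to 0.177 between same-numbered mice, all above 0. Between differently numbered mice the correlations were from -0.202 to 0.211, most of them below 0. The labels name no pairing, so the main fit had none, but these values do not exclude one. With the replicate block 772 genes and 25 list genes were called in FMD vs IF, and Mt1 and Mt2 changed by 4.19 and 5.56 in FMD vs FED.

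Genes that were not called turned sign. Under scaling and quantile normalization, Mtf1 was at -0.11 and -0.10 in IF vs FED and at -0.015 and -0.045 in FMD vs FED. In FMD vs FED Slc30a1 was at -0.28 and -0.32, at -0.046 with the block and between -0.022 (without FMD 4) and 0.38 with a library left out. Slc39a4 was at -0.45 and -0.40, at -0.0081 with the block and between -0.0255 (without FED 2) and 0.16 with a library left out. Herpud1 in IF vs FED was at -0.029 in the main fit and turned sign only without FED 1, to 0.059. It kept its sign under both scalings, at -0.31 and -0.38, and its lowest value with a library left out was -0.14. Of the other values of single genes, 749 kept direction and call, 145 lost the call and 2 gained it. These single-gene alternatives were added after seeing the data. Depth limits cannot be given for TPM, and Mt2 in FED 1, at 1.37 TPM, is the value on which the pseudocount bears most.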
